A study of Mus musculus with 70 samples.

Results

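Muscle mesenchymal stromal cells (MmSCs) of mdx mice were compared between 12.5 and 2.5 weeks of age, to separate changes that lasted beyond 7 weeks from changes that had gone back. The comparison used 5 of the 70 libraries of the series, 3 at 2.5 weeks and 2 at 12.5 weeks, chosen by the genotype and age in their labels. A further 3 mdx libraries at 7 weeks served as the reference in between and shared the fit. All 8 libraries were polyadenylated RNA from 1000 MmSCs each, released from hindlimb skeletal muscle by enzymatic digestion and purified by 2 rounds of flow sorting. The mice carried the allele labelled DMDmdx and were untreated. The oldest group is given as 12 weeks in the sample titles and as 12.5 weeks in the source names, and 12.5 weeks is used here. The labels give neither the sex of the mice nor which libraries came from which animals, so the p-values below measure the spread between these libraries, which may be technical in part. Every mdx library carried the mutation and no wild-type MmSCs of the same ages were analysed here, so growth of the animal and course of the disease cannot be told apart. For orientation, levels are also given in MmSCs of C57BL/6J mice, uninjured or 1 day after cardiotoxin, with 3 libraries each, whose ages the labels do not give.

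MmSCs, also called fibro-adipogenic progenitors, lie between the muscle fibres, build the extracellular matrix and send growth factors and cytokines to muscle stem cells and immune cells. The mdx mouse lacks full-length dystrophin, and its limb muscles look almost normal in the first weeks of life, then pass through rounds of fibre death and regeneration, and later settle into a milder chronic disease. Over the same weeks the animal grows up, and in many organs a network of imprinted growth genes, which are read from one parental copy, is shut down as growth ends.

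Library totals ran from 3507546 to 5960363 counts, and both detection and mitochondrial share differed by age without overlap. Genes with at least 1 count numbered 22406 to 23118 at 2.5 weeks, 20603 to 21879 at 7 weeks and 20305 and 19461 at 12.5 weeks. Mitochondrial genes took 0.369% to 0.439%, 0.566% to 0.647%, and 0.483% and 0.513% of counts. Their part in the results below was not tested. The labelled cell type was checked on its surface markers. Pdgfra, the receptor used to define these cells, lay between 283 and 561 counts per 1000000 counts of the library (CPM) in all 8 libraries. Its log2 change at 12.5 against 2.5 weeks was 0.17 ± 0.19 (SE; adjusted p = 0.56). The summed level of 20 MmSC markers was 127199 to 144384 CPM at 2.5 weeks, 123843 to 138173 at 7 weeks and 130772 to 145069 at 12.5 weeks. Ptprc, which marks blood cells, did not exceed 0.838 CPM and Pax7, which marks muscle stem cells, did not exceed 0.452 CPM in any library. The 12 satellite cell markers summed to 354 to 505 CPM at 2.5 weeks, 651 to 769 at 7 weeks and 693 to 734 at 12.5 weeks. Most of this was Sdc4, a cell-surface proteoglycan also made by other cells (309 to 454, 548 to 688, and 641 and 670.0 CPM). Of the list's 4 tested members 2 were higher at 12.5 against 2.5 weeks, Sdc4 and Msc, and the part of this list in the results was not tested. Dmd itself, whose reads do not report the point mutation, was at 24.9 to 32.3 CPM at 2.5 weeks and at 22.5 and 22.6 CPM at 12.5 weeks. The Y-linked gene Ddx3y was at 63.0 to 103 CPM in all 8 libraries and Xist at no more than 1.47 CPM.

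Replicate 2 at 2.5 weeks stood apart. It had 750 genes more than 2-fold beyond both other libraries of its age, against 363 for replicate 1 and 311 for replicate 3. It also held the highest levels of dividing-cell genes at that age (Top2a at 20.7 CPM against 2.93 and 2.36). Results that rest on it are given with and without it, a choice made after its values were seen.

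At 12.5 against 2.5 weeks 1833 genes were higher and 1632 lower of 13160 tested, which is 26.3% of the genes (13.9% higher and 12.4% lower; edgeR quasi-likelihood test, Benjamini-Hochberg adjusted p under 0.05). At 7 against 2.5 weeks 2883 genes were higher and 2981 lower, or 44.6% (21.9% and 22.7%). From 7 to 12.5 weeks 463 genes were higher and 314 lower, or 5.90% (3.52% and 2.39%). The last step thus held the fewest calls, with 2 libraries on 1 side of it. The libraries of the youngest and oldest mice did not overlap in 6922 of the 13160 genes (52.6%). The median log2 change over all genes tested was −0.01, −0.02 and 0.01 in these comparisons. The number called depended on single libraries: without replicate 2 at 2.5 weeks, 2493 genes were higher and 2295 lower at 12.5 against 2.5 weeks. Without replicate 1 at 12.5 weeks the counts were 931 and 753, and without replicate 2 at 12.5 weeks they were 1094 and 777.

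The 3 comparisons sort the genes into patterns. A gene is called lasting here when it passed the test in the same direction at 7 and at 12.5 weeks against 2.5 weeks. It is called returning when it passed at 7 against 2.5 weeks, passed in the opposite direction at 12.5 against 7 weeks, and did not pass at 12.5 against 2.5 weeks. Late genes passed at 12.5 weeks against both younger ages in the same direction and did not pass at 7 against 2.5 weeks. These comparisons share libraries, so the classes describe the shape of each gene's course and are not independent tests. By these rules 1478 genes were lasting and higher (11.2% of those tested) and 1393 lasting and lower (10.6%). Returning genes numbered 163 with a peak at 7 weeks (1.24%) and 185 with a trough there (1.41%). Late genes numbered 77 that were higher (0.585%) and 26 that were lower (0.198%). The lasting genes make up 82.9% of the genes called at 12.5 against 2.5 weeks and 49% of those called at 7 against 2.5 weeks, and the returning genes 5.93% of the latter. Within the lasting class, 96 of the higher genes had come back part of the way by 12.5 weeks (called lower at 12.5 than at 7 weeks), 54 had gone further, and 1328 did not pass the test between 7 and 12.5 weeks. Of the lasting lower genes 113 had come back part of the way, 8 had gone further and 1272 did not pass. A gene that did not pass is not shown to have kept its level.

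Imprinted genes showed a lasting loss. Of 26 genes on an imprinted growth list 24 were tested, and 20 of them were lower and 1 higher at 12.5 than at 2.5 weeks, with a median log2 change of −1.54. At 7 weeks 18 were lower and 0 higher, and 7 fell again between 7 and 12.5 weeks, with 0 higher. Without replicate 2 at 2.5 weeks the count at 12.5 against 2.5 weeks was 19 lower and 1 higher. The count for the step from 7 to 12.5 weeks is the less certain one: it was 11 without that library and 3 without replicate 1 at 7 weeks or without either library at 12.5 weeks. By class, 16 of the 24 were lasting lower and 4 late lower.

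Promoter sequences of 3 members are shown because these genes fell together and because imprinted genes are controlled through CpG methylation, which was not measured. They were picked after their values were seen, as the members with the smallest p among those with 1 promoter in the RefSeq table (build GRCm38.p6). Each runs 5′ to 3′ on the gene's strand, from 250 bases before to 50 bases after the start, with every CG in capitals. Peg3 lies at chr7:6730370-6730669 on the minus strand and holds 13 CG, Plagl1 at chr10:13090582-13090881 on the plus strand holds 26, and Zim1 at chr7:6696383-6696682 on the minus strand holds 20.
Peg3: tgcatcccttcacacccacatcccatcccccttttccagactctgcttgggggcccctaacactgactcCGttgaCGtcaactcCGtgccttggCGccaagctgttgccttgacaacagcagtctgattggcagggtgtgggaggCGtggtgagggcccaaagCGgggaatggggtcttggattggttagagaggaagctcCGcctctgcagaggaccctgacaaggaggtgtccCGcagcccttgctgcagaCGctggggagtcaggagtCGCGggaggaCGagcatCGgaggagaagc
Plagl1: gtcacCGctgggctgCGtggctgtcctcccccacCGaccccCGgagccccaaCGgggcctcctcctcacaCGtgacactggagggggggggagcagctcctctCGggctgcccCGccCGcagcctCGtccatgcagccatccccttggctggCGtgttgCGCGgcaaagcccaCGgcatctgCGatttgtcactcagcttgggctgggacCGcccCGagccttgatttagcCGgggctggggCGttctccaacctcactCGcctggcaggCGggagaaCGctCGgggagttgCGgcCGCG
Zim1: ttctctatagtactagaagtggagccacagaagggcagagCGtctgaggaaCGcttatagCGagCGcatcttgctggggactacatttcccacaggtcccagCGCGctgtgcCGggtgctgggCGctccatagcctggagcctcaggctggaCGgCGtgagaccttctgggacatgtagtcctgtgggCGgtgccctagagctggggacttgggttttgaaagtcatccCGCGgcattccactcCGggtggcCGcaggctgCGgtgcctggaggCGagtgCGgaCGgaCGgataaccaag
The median over the 18 list members with a promoter in the table was 12 CG, against 7 over the promoters of all 27025 genes there. It was 25 over the mitosis and 21 over the DNA replication promoters described below, so a median above that of all genes was not particular to the imprinted list.

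Igf2, the fetal insulin-like growth factor (chr7:142650766-142666816, minus strand, GRCm38), almost disappeared. It was at 133, 97.6 and 94.6 CPM at 2.5 weeks, at 1.34, 0.179 and 0.678 CPM at 7 weeks, and at 0.193 and 0 CPM at 12.5 weeks. The groups at 2.5 and 12.5 weeks are far apart: 1572 counts in the 3 young libraries stood against 1 count in the 2 old ones, a ratio of 941 after scaling to the library totals, with a 95% exact counting interval of 169 to 37180.3 (adjusted p = 2.5e-08). H19, the non-coding RNA next to Igf2 (chr7:142575529-142578143), fell in steps, from 1444, 1246 and 1007 CPM to 176, 116 and 112 CPM and then to 15.6 and 31.1 CPM. No libraries of neighbouring ages overlapped. H19 was 48.6-fold lower at 12.5 than at 2.5 weeks (log2 −5.60 ± 0.30, adjusted p = 2.5e-08) and 5.56-fold lower than at 7 weeks (adjusted p = 0.00029). In uninjured C57BL/6J MmSCs H19 was at 32.3 ± 17.3 CPM and Igf2 at 0.538 ± 0.248 CPM (SD, n = 3), beside 15.6 and 31.1 CPM and 0.193 and 0 CPM in the oldest mdx group, a comparison of strains that was not tested.

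**Figure D1:**
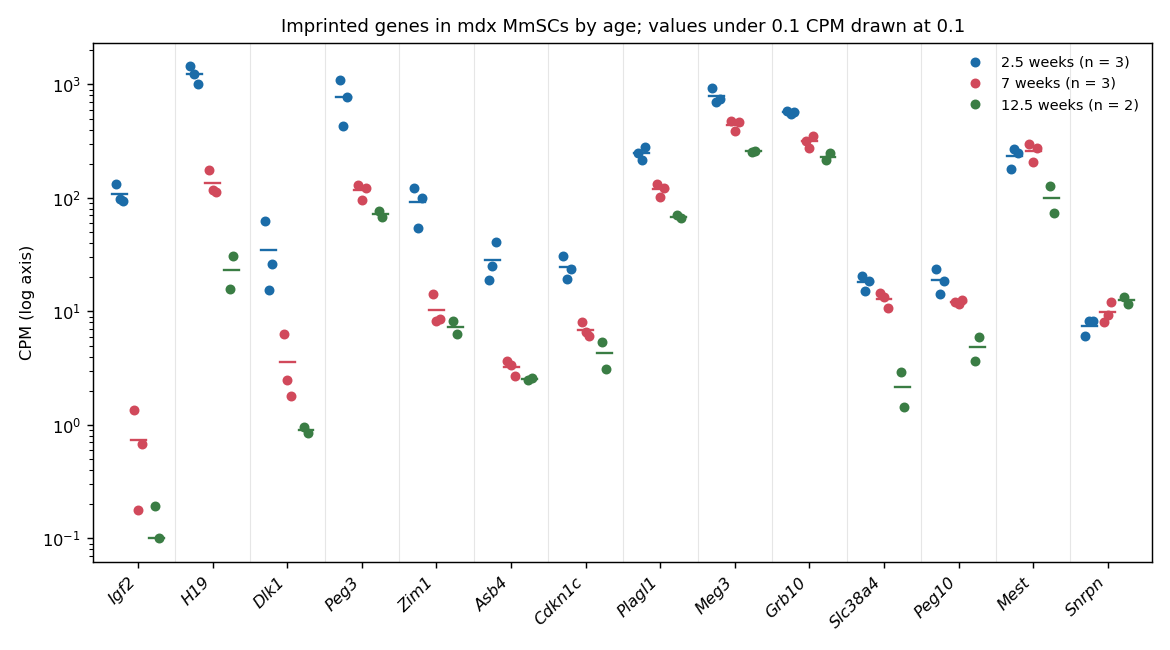
CPM of 14 imprinted genes on a log axis in mdx MmSCs at 2.5 weeks (3 libraries), 7 weeks (3) and 12.5 weeks (2); points are libraries and bars the group means, and values under 0.1 CPM are drawn at 0.1. Igf2 is near 0 from 7 weeks on, and H19 falls in both steps. Slc38a4, Peg10 and Mest are lowest at 12.5 weeks, and Snrpn is the single member called higher.

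Peg3, a zinc-finger protein (chr7:6703892-6730431), was at 1093, 430.5 and 778 CPM at 2.5 weeks, at 129, 96.6 and 123 CPM at 7 weeks, and at 76.3 and 68.4 CPM at 12.5 weeks. Its level at 12.5 weeks was 9.39-fold below that at 2.5 weeks (log2 −3.23 ± 0.30, adjusted p = 2.5e-06), and most of that was present by 7 weeks. Its neighbour Zim1, another zinc-finger gene (chr7:6671269-6696450), fell alongside it, from 123, 54.5 and 99.3 CPM to 8.31 and 6.27 CPM (log2 −3.46 ± 0.35, adjusted p = 6.3e-06). Dlk1, a Notch-like membrane protein of immature cells (chr12:109452823-109463336), fell from 62.4, 15.5 and 26.2 CPM to 0.966 and 0.855 CPM (log2 −5.02 ± 0.73, adjusted p = 0.00018). Meg3, the non-coding RNA of the same imprinted cluster (chr12:109541001-109571726), was at 929, 704 and 747 CPM, then at 476, 385 and 464 CPM, then at 252 and 261 CPM. It fell in both steps (log2 −1.47 ± 0.15 over the whole span, adjusted p = 6.1e-06, and −0.69 from 7 to 12.5 weeks, adjusted p = 0.011). Plagl1, a zinc-finger regulator of other imprinted genes, had the same 2-step course, from 251, 215 and 279 CPM through 132, 101 and 123 CPM to 70.7 and 66.1 CPM. Grb10, an adaptor that restrains insulin and IGF receptors, fell by 1.14 on the log2 scale (SE 0.13), and the cell cycle inhibitor Cdkn1c by 2.31 (SE 0.31).

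A smaller set of imprinted genes passed no test at 7 against 2.5 weeks and was lower at 12.5 weeks than at both younger ages. Slc38a4, an amino acid transporter (chr15:96994820-97055956), was at 20.3, 15.1 and 18.7 CPM, then at 14.4, 13.4 and 10.6 CPM, then at 2.9 and 1.43 CPM. All 3 libraries at 7 weeks lay below those at 2.5 weeks, a difference that did not pass the test (log2 −0.42, adjusted p = 0.15), and the step from 7 to 12.5 weeks was 5.25-fold (adjusted p = 0.0017). Peg10, a retrotransposon-derived gene, and Gnas, which encodes a G-protein subunit from a locus with several overlapping transcripts, were 3.55-fold and 3.07-fold lower at 12.5 than at 2.5 weeks. Mest, a hydrolase-like protein named here after its values were seen, was at 181, 269 and 249.7 CPM, at 297, 208 and 276 CPM, and at 127 and 74.1 CPM. It was 2.39-fold lower at 12.5 than at 7 weeks (adjusted p = 0.0076). Snrpn, a splicing protein, was the 1 member called higher, from 6.07, 8.26 and 8.17 CPM to 13.3 and 11.7 CPM (log2 0.90 ± 0.29, adjusted p = 0.034). That call was lost without replicate 1 or 3 at 2.5 weeks (adjusted p of 0.11 and 0.061) and without either library at 12.5 weeks (log2 0.76 and 1.01). It was also lost with DESeq2, with no filter on low counts and with the 5 libraries alone (adjusted p of 0.057, 0.051 and 0.059).

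On a list of 19 IGF axis genes, 16 were tested, and 9 were lower and 2 higher at 12.5 against 2.5 weeks (median log2 −0.78). Igf2 and its receptor Igf2r are on this list and on the imprinted list, and both are among the 9. The count of lower genes was 5 without replicate 2 at 12.5 weeks and 10 without replicate 2 at 2.5 weeks. Igf1, the postnatal growth factor, fell from 1052, 1094 and 1017 CPM to 513 and 547 CPM (log2 −0.84 ± 0.12, adjusted p = 0.00014), and its receptor Igf1r from 129, 72.6 and 109.6 CPM to 29.8 and 41.1 CPM. Neither passed the test from 7 to 12.5 weeks (adjusted p of 0.68 and 0.92). The 2 members called higher are binding proteins: Igfbp4 rose from 527, 698 and 807 CPM to 1580.5 and 1633 CPM, and Igfbp7 from 45.2, 40.1 and 55.4 CPM to 135 and 112 CPM. Igfbp3, the main carrier of IGF in blood, went the other way and fell by 2.02 on the log2 scale (SE 0.36).

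Genes of juvenile growth did not move as a group. Of 22 such genes 21 were tested, and 4 were higher and 5 lower (median log2 0.03). Tubb2b, Dpysl3 and Hmga1 were among the higher ones. The Hmga1 call was lost without replicate 1 at 2.5 weeks (log2 0.71, adjusted p = 0.076) and without either library at 12.5 weeks (log2 0.72 and 0.98). The Dpysl3 call was lost without replicate 3 at 2.5 weeks (log2 0.46, adjusted p = 0.058) and without either library at 12.5 weeks (log2 0.65 and 0.55). Tubb2b lost its call without replicate 2 at 12.5 weeks (log2 1.09). Among the lower ones Sox11, a fetal transcription factor, fell from 19.1, 14 and 15.3 CPM to 0.966 and 0.57 CPM (log2 −4.12 ± 0.48), and Igf2bp2, which binds Igf2 mRNA, from 168, 169 and 215 CPM to 57.6 and 58.7 CPM. Mycn was at 2.51 to 4.94 CPM at 2.5 weeks and at 0 in both libraries at 12.5 weeks, at least 4.74-fold lower against a floor of 3 counts per library. That call was lost without replicate 1 or replicate 2 at 12.5 weeks (adjusted p of 0.084 and 0.054). Gpc3 and Nrk are named here for the size of their fall and not as members of this list. Gpc3 is a cell-surface proteoglycan that binds growth factors and is lost in an overgrowth syndrome (chrX:52272426-52613950). It fell 10.3-fold, from 742, 629 and 612 CPM through 101, 81.6 and 85.2 CPM to 61.8 and 52.7 CPM. Nrk, a kinase of fetal tissues, fell 57.2-fold, from 102, 78.3 and 65.5 CPM to 1.74 and 0.57 CPM.

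Most complement genes tested were higher at both later ages. Of 22 listed, 18 were tested, and 14 were higher and 2 lower at 12.5 than at 2.5 weeks (median log2 1.68). At 7 weeks 13 were higher and 2 lower, and 5 rose again between 7 and 12.5 weeks with 0 lower. Leaving out any 1 library left 14 higher at 12.5 against 2.5 weeks, while the count for the last step moved between 3 and 9 (3 without replicate 2 at 12.5 weeks and 9 without replicate 1 or 2 at 2.5 weeks). C7, a component of the membrane attack complex (chr15:4988762-5063740), was at 8.17, 6.89 and 14.2 CPM, then at 11.4, 39.7 and 23.3 CPM, then at 280.2 and 182 CPM. It rose 26.7-fold over the whole span (log2 4.74 ± 0.39, adjusted p = 1e-06), and the larger part, 3.33 on the log2 scale, came after 7 weeks (adjusted p = 0.00029). C4b, shared by the classical and lectin pathways, rose from 110.2, 123 and 168 CPM through 514, 834 and 782 CPM to 1806 and 1638 CPM (log2 3.85 ± 0.21). Its near-identical copy C4a can share reads with it, so the split between the 2 genes is uncertain.

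The lectin-pathway protease gene Masp1 rose in both steps, from 11.5, 10.6 and 18.1 CPM through 53, 64.2 and 78.4 CPM, and ended at 102 and 143 CPM (log2 3.34 ± 0.23). Cfb, the alternative-pathway protease, had a different course: it rose from 4.4, 11.2 and 11.8 CPM to 77.5, 103 and 91.3 CPM at 7 weeks and was at 61.8 and 60.4 CPM at 12.5 weeks, a last step that did not pass the test (log2 −0.47, adjusted p = 0.27). The lower members were Cfp, which stabilises the alternative-pathway convertase (1.93 and 1.14 CPM at 12.5 weeks against 5.24 to 9.25), and Cd55, which breaks convertases down (log2 −0.47 ± 0.16). The Cfp call was lost without either library at 12.5 weeks (adjusted p of 0.051 and 0.10). The Cd55 call was lost without replicate 1 at 12.5 weeks (adjusted p = 0.38) and without replicate 1 at 2.5 or at 7 weeks (0.074 and 0.066). In uninjured C57BL/6J MmSCs C7 was at 163 ± 60.5 CPM and C4b at 202 ± 83.2 CPM (SD, n = 3); C4b in both mdx libraries at 12.5 weeks lay above all 3 of these, a comparison that was not tested.

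**Figure D2:**
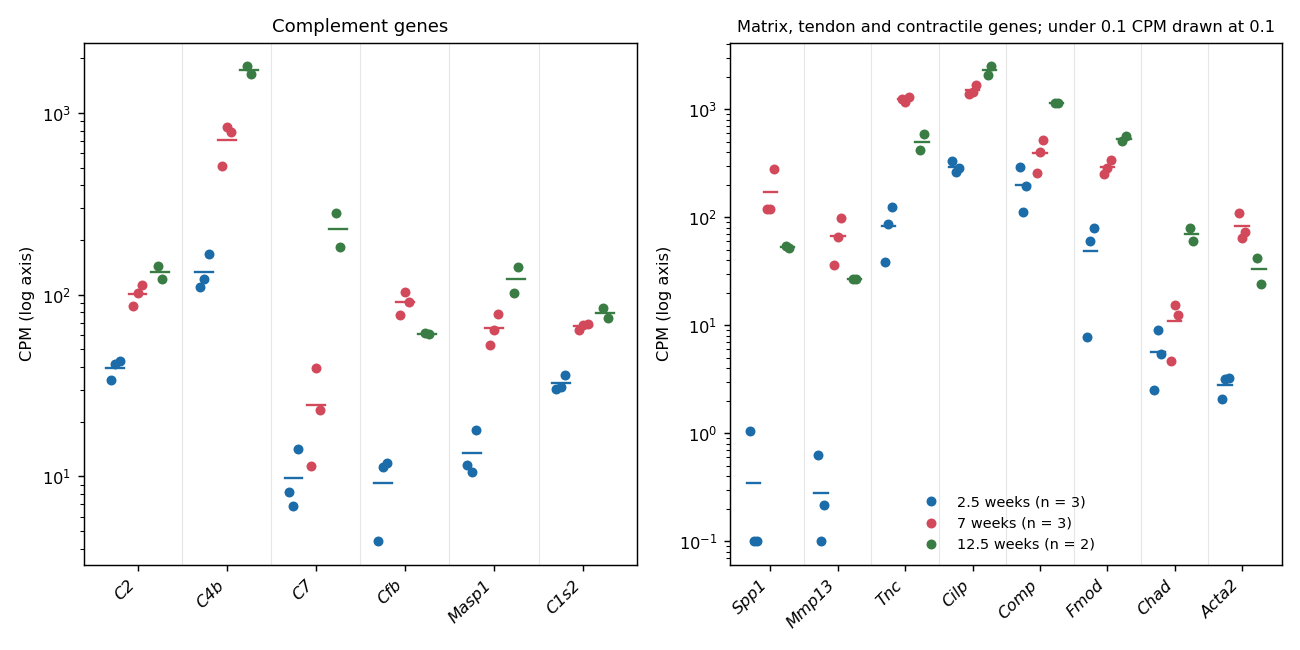
CPM on a log axis of 6 complement genes (left) and 8 matrix, tendon and contractile genes (right) in mdx MmSCs by age; points are libraries, bars are group means, and on the right values under 0.1 CPM are drawn at 0.1. C4b, C7, Comp and Chad climb to 12.5 weeks, while Spp1, Mmp13, Tnc and Acta2 peak at 7 weeks and stay above the 2.5-week libraries.

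Most tendon and cartilage genes tested were higher at 12.5 than at 2.5 weeks. On a list of 26 tendon and cartilage genes 19 were tested, and 14 were higher and 1 lower at 12.5 against 2.5 weeks, with a median log2 change of 2.31. From 7 to 12.5 weeks 5 rose, 0 fell and 14 did not pass. Without replicate 1 at 7 weeks 3 rose, and without replicate 1 and 2 at 12.5 weeks 1 and 2 did. Cilp, a cartilage matrix protein that MmSCs also make, rose from 336, 260.5 and 284 CPM through 1381, 1445 and 1673 CPM to 2093 and 2501 CPM. This was an 8.74-fold rise (log2 3.13 ± 0.14, adjusted p = 7.5e-09), with a last step that passed as well (log2 0.71, adjusted p = 0.0072). Comp, a collagen-binding matricellular protein, rose in both steps, from 293, 112 and 193 CPM through 259, 401 and 517 CPM to 1146 and 1145 CPM. Chad, a cartilage leucine-rich repeat protein, was late: 2.51, 9.05 and 5.37 CPM and 4.7, 15.4 and 12.4 CPM overlapped, and 80.4 and 60.2 CPM followed (13.7-fold above 2.5 weeks, adjusted p = 1.6e-05). Fmod, which regulates collagen fibril width, rose from 7.75, 60.4 and 79.3 CPM to 505 and 562 CPM. Runx2, the transcription factor of bone and hypertrophic cartilage, rose from 0.838, 3.74 and 5.16 CPM to 43.5, 43.8 and 36.6 CPM and was at 28.4 and 31.9 CPM at 12.5 weeks. The lower member was Egr1, which sits on the list as a tendon transcription factor and is also an immediate-early gene.

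Some matrix genes were highest at 7 weeks and fell afterwards. Among 24 matricellular genes 10 were higher and 1 lower at 12.5 against 2.5 weeks, and 12 higher and 7 lower at 7 against 2.5 weeks. From 7 to 12.5 weeks 4 were higher, 6 lower and 14 not called, with fewer lower without either library at 12.5 weeks. By class, 1 returned from a peak at 7 weeks and 3 from a trough. Spp1, or osteopontin (chr5:104435118-104441050), was at 1.05, 0 and 0 CPM at 2.5 weeks, at 119.8, 120.4 and 278 CPM at 7 weeks and at 54.3 and 51.9 CPM at 12.5 weeks. It was 3.04-fold lower at 12.5 than at 7 weeks (adjusted p = 0.014) and still far above every 2.5-week library. The collagenase Mmp13 followed the same course, from 0.628, 0 and 0.215 CPM to 36.1, 65.6 and 98.5 CPM and to 26.9 and 26.8 CPM. Tenascin-C (Tnc), an injury-induced matrix glycoprotein, was at 39, 86.6 and 124 CPM, at 1255, 1179 and 1296 CPM and at 417 and 591 CPM. These genes are lasting by rule, but each fell from 7 to 12.5 weeks (Mmp13 log2 −1.21, adjusted p = 0.045, and Tnc log2 −1.22, adjusted p = 0.030). Single-gene calls in this step were not checked by leaving out libraries. Over all genes, 314 were lower in this step, and 98, 153 and 188 without replicates 1, 2 and 3 at 7 weeks. Ccn5, a growth-restraining matricellular protein, did not pass in that step: 169, 204 and 207 CPM at 7 weeks were followed by 165 and 115 CPM, against 6.49 to 9.67 CPM at 2.5 weeks.

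Contractile genes of myofibroblasts were higher at both later ages. Of 12 tested among 16 listed, 10 were higher and 0 lower at 12.5 against 2.5 weeks (median log2 0.90), 11 were higher at 7 weeks, and in the last step 3 fell and 9 did not pass. Acta2, smooth muscle actin, rose from 2.09, 3.15 and 3.22 CPM to 111, 64.7 and 73.5 CPM and fell to 42.3 and 23.9 CPM, which was still 13.2-fold above 2.5 weeks (log2 3.72 ± 0.34). Tropomyosin 1 (Tpm1) rose from 35, 45.1 and 39.1 CPM to 298, 262 and 263 CPM and fell to 113 and 118 CPM (adjusted p = 0.00069 for the fall). The summed level of 10 pericyte and smooth muscle markers, which include Acta2, was 78.0 to 124 CPM, 182 to 244 CPM and 163 to 173 CPM at the 3 ages, and its part in these results was not tested.

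The main collagens did not show a lasting rise. Col1a1 was at 20799.6, 26602 and 20209.6 CPM at 2.5 weeks, at 35609, 29833 and 37340.4 CPM at 7 weeks and at 24332 and 17532 CPM at 12.5 weeks. The oldest and youngest libraries overlapped (log2 0.05 ± 0.18, adjusted p = 0.86), and 7 weeks was above 2.5 weeks (log2 0.66, adjusted p = 0.0039). The drop from 7 to 12.5 weeks missed the threshold (log2 −0.61, adjusted p = 0.061). Col3a1 changed by −0.18 ± 0.15 (adjusted p = 0.40). Of 11 fibrillar collagen genes 3 were higher and 0 lower at 12.5 against 2.5 weeks, and 0 were higher without replicate 1 at 12.5 weeks. Of 31 genes that process and crosslink collagen 16 were higher and 2 lower. That count ranged from 6 without replicate 1 at 12.5 weeks, 9 without replicate 2 there and 10 without replicate 1 or 3 at 2.5 weeks, to 23 without replicate 2 at 2.5 weeks. The crosslinking enzyme Lox rose from 251, 291 and 409 CPM to 873 and 783 CPM. Among the 2 that fell was Pcolce2, an enhancer of collagen processing, at 422 and 435 CPM against 682 to 830.1 CPM. Of 25 proteoglycan genes tested 15 were higher and 2 lower. Bgn, which binds collagen and innate immune receptors, rose 3.28-fold to 5499.9 and 5320.0 CPM, and Sdc1, a cell-surface proteoglycan, rose from 15.3, 25.2 and 18.5 CPM to 331, 339 and 358 CPM before it fell to 159.8 and 131 CPM. The lower ones were Gpc3, described above, and Omd, a small keratan sulphate proteoglycan (log2 −0.88 ± 0.31, adjusted p = 0.048). The Omd call was lost with the replicate block (log2 −0.70, adjusted p = 0.13), without replicate 2 at 12.5 weeks (log2 −0.50, adjusted p = 0.36), without replicate 3 at 2.5 weeks (0.15) and without each library at 7 weeks (0.052 to 0.068).

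Chemokine and colony-stimulating factor genes were higher at both later ages in most of those tested. Of 22 tested among 29 listed, 12 were higher and 1 lower at 12.5 against 2.5 weeks (median log2 1.14), and 1 rose and 3 fell from 7 to 12.5 weeks. Cxcl14, a chemokine of resident fibroblasts (chr13:56288643-56296551), went from 4.19, 12 and 21.5 CPM to 638, 791 and 631 CPM and was still at 622 and 594 CPM. That is 54.0-fold above 2.5 weeks (log2 5.75 ± 0.35, adjusted p = 4.7e-08) with no detectable step after 7 weeks (log2 −0.08 ± 0.29). Csf1, the growth factor of macrophages, kept climbing, from 176, 265 and 219 CPM through 512, 516 and 485 CPM to 812 and 809 CPM. Cxcl12, which retains stem and immune cells, rose 3.59-fold to 957 and 990.4 CPM. The neutrophil chemokine Cxcl5 was at 45.7, 127 and 239 CPM, then at 1930.2, 2352 and 1247 CPM, then at 591 and 622 CPM, a fall from 7 weeks that missed the threshold (adjusted p = 0.057). Ccl2, which draws monocytes, had returned: it was at 1449, 1868 and 1674 CPM, at 3407, 3529.7 and 2306 CPM and at 1881 and 1741 CPM (log2 0.28 ± 0.17 at 12.5 against 2.5 weeks, adjusted p = 0.25). The 1 lower member was Cxcl10, an interferon-induced T-cell chemokine, at 4.06 and 2 CPM against 50.5, 34 and 21.1 CPM.

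**Figure D3:**
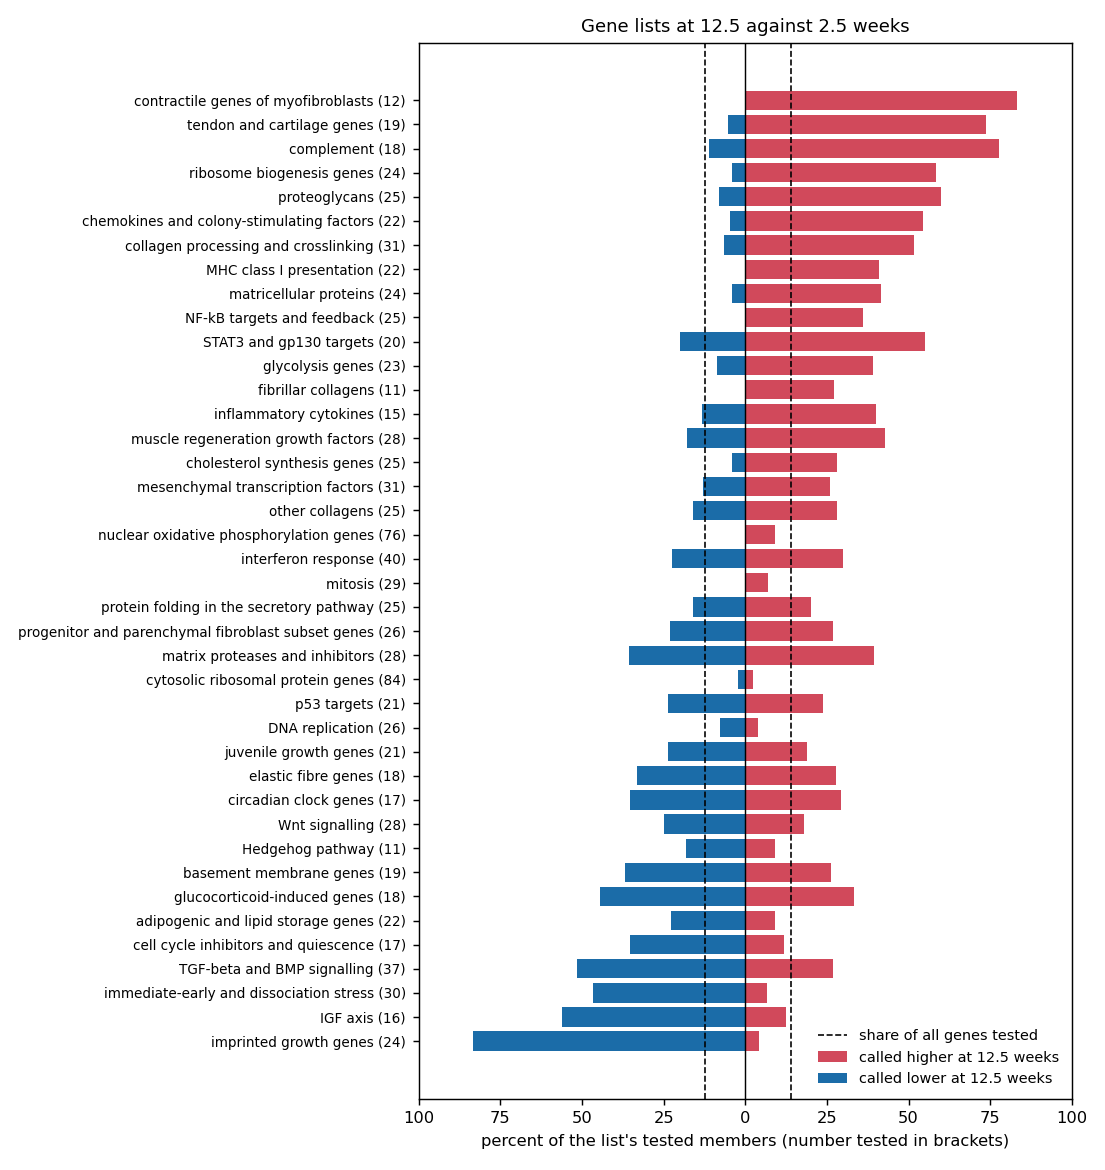
Share of each gene list's tested members called higher or lower at 12.5 against 2.5 weeks, in percent, with the number tested in brackets. The share over all genes tested was 13.9% higher and 12.4% lower, and the imprinted list is almost wholly on the lower side while complement, tendon and contractile lists lie on the higher side.

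Interferon-regulated genes were mixed, with 12 higher and 9 lower of 40 tested (5 higher without replicate 1 at 12.5 weeks). Irf1, an interferon-induced transcription factor, fell from 535, 341 and 511 CPM to 39.8, 45.6 and 49.7 CPM and was at 72.5 and 62.2 CPM at 12.5 weeks. Ifi27l2a, an interferon-stimulated gene, went the opposite way, from 7.12, 31.7 and 12 CPM to 166 and 166 CPM. MHC class I presentation genes were higher in 9 of 22 with 0 lower (5 without replicate 1 at 12.5 weeks). H2-D1, a classical class I heavy chain whose reads can be shared with related genes, rose 3.17-fold, to 1016 and 1149 CPM.

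TGF-beta and BMP signalling held ligands that moved in opposite directions. Of 37 genes tested 10 were higher and 19 lower at 12.5 against 2.5 weeks (median log2 −0.55). Without replicate 1 or replicate 2 at 12.5 weeks 8 and 10 were lower. Inhba, the activin A subunit (chr13:16011851-16031621), rose from 25.3, 22.8 and 34.6 CPM to 853, 796 and 774 CPM and fell back to 386 and 385 CPM. It stayed 15.6-fold above 2.5 weeks (log2 3.96 ± 0.16, adjusted p = 2.6e-09). The BMP ligand Bmp7 fell from 67.9, 82.6 and 74.1 CPM to 8.72, 9.12 and 5.2 CPM and was at 13.9 and 12.5 CPM at 12.5 weeks. Bmp2 fell from 208, 155 and 195 CPM to 60.1 and 52.2 CPM, and the BMP target Id3 from 1086, 634 and 824 CPM to 323 and 335 CPM. The BMP-binding protein Bmper rose 7.66-fold, from 36.7, 32.9 and 47.3 CPM to 256 and 278 CPM.

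Immediate-early genes, which respond within minutes and also to cell dissociation, were lower. Of 30 tested 14 were lower and 2 higher at 12.5 against 2.5 weeks (median log2 −0.60). Atf3 fell from 1898, 1423 and 1799.8 CPM to 352, 352 and 492 CPM and was at 486 and 474 CPM, with no overlap between the youngest libraries and the rest. Egr1 fell from 1756, 863 and 1469 CPM to 351 and 343 CPM, and Junb from 3104, 2032 and 2594 CPM to 1026 and 1020.1 CPM. Those called higher were Fosl1, a late member of the Fos family, and the heat shock protein gene Hspb1.

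Growth factors for muscle and nerve were 12 higher and 5 lower of 28 tested (3 lower without replicate 2 at 12.5 weeks). Gas6, which signals to the Axl and Mertk receptors, climbed from 182, 147 and 219 CPM through 476, 678 and 638 CPM to 1153 and 1071 CPM (log2 2.77 ± 0.17). Nrg1, a ligand of ErbB receptors, spiked: 3.35, 1.77 and 2.15 CPM, then 46, 45.1 and 37.5 CPM, then 9.27 and 8.55 CPM. It was 4.47-fold lower at 12.5 than at 7 weeks (adjusted p = 0.00029) and 4.11-fold above 2.5 weeks (adjusted p = 0.00016). Fgf2, a mitogen for muscle stem cells, was lowest at 7 weeks, at 10.7, 10.7 and 14.2 CPM, and stood at 23.4 and 21.7 CPM at 12.5 weeks against 55.3, 57.3 and 40.4 CPM at 2.5 weeks.

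A pair of adhesion and receptor genes used to divide fibroblast states moved in opposite directions. Tek, the angiopoietin receptor (chr4:94739289-94874976), was at 432, 374 and 390.0 CPM at 2.5 weeks, at 35.1, 45.4 and 44.5 CPM at 7 weeks and at 65.9 and 90.4 CPM at 12.5 weeks. It fell 4.60-fold over the whole span (log2 −2.20 ± 0.16, adjusted p = 3.6e-07) after a partial rise from 7 weeks (log2 0.99, adjusted p = 0.0029). Vcam1, an adhesion molecule, rose from 13.6, 34.6 and 21.5 CPM to 448, 499.9 and 439 CPM and was at 242 and 318 CPM at 12.5 weeks (log2 3.73 ± 0.26). In uninjured C57BL/6J MmSCs Tek was at 90.0 ± 6.70 CPM and Vcam1 at 52.2 ± 5.60 CPM (SD, n = 3). Tek is also an endothelial gene, and the summed level of 12 endothelial markers, most of it Tek, was 385 to 450 CPM, 56.2 to 64.6 CPM and 75.5 to 104 CPM. Pecam1, which defines endothelial cells, was at 1.97 to 4.51 CPM at 2.5 weeks and 0.773 and 2.00 CPM at 12.5 weeks, so the endothelial signal apart from Tek was small. The 15 macrophage and myeloid markers summed to 26.2 to 43.4 CPM at 2.5 weeks and 10.3 to 10.8 CPM at 12.5 weeks, mostly through Cd68, a lysosomal protein that fell from 29.5, 21.2 and 32 CPM to 3.28 and 3.71 CPM. The 9 neutrophil markers did not sum to more than 2.86 CPM in any library.

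Genes that mark adventitial progenitors and parenchymal fibroblasts were 7 higher and 6 lower of 26 (2 and 3 lower without replicate 1 and 2 at 12.5 weeks). At 7 weeks 4 were higher and 15 lower, and from 7 to 12.5 weeks 8 were higher and 0 lower (2 without replicate 1 or 2 at 12.5 weeks and 17 without replicate 2 at 2.5 weeks). Dpp4, an adventitial progenitor marker, fell from 475, 476 and 447 CPM to 142, 131 and 121 CPM and was at 156 and 198 CPM. Smoc2, a parenchymal fibroblast marker, rose from 344, 431 and 461 CPM through 954, 1172 and 1055 CPM to 1639 and 1675 CPM. The list was mixed beyond these genes. Ly6a, another member, was called higher at 12.5 against 2.5 weeks, a call lost in several alternatives, such as upper-quartile factors (log2 0.33, adjusted p = 0.063). Pi16, also a member, was called lower, a call lost without either library at 12.5 weeks (log2 −0.80 and −0.71). In bulk libraries a change in the mix of fibroblast states and a change within each cell cannot be told apart.

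Cell division genes rose at 7 weeks and fell back. Of 29 mitosis genes tested among 30, 24 were higher and 0 lower at 7 against 2.5 weeks (median log2 2.38), 12 were lower and 0 higher at 12.5 against 7 weeks (median −1.90), and 2 were higher at 12.5 against 2.5 weeks (median 0.40). Of 26 DNA replication genes tested among 27, the counts were 16 higher and 1 lower, then 10 lower and 0 higher, and 1 higher and 2 lower at 12.5 against 2.5 weeks. By class, 11 mitosis and 8 replication genes were returning. How complete the return was depended on replicate 2 at 2.5 weeks: without it 13 mitosis genes and 6 replication genes were higher at 12.5 than at 2.5 weeks, and the median of the mitosis list was 1.77. Without replicate 1 at 12.5 weeks 0 mitosis genes were. The fall from 7 to 12.5 weeks was called in 23 mitosis genes without replicate 2 at 2.5 weeks, in 3 and 2 without replicate 1 and 2 at 12.5 weeks, and in 2, 5 and 6 without replicates 1, 2 and 3 at 7 weeks. For DNA replication that count was 1 without replicate 1 at 12.5 weeks, 5 without replicate 2 there and 6 without replicate 1 at 7 weeks.

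The promoters of 3 mitosis genes are shown because such genes are known to share short cell-cycle elements. They have the smallest p at 7 against 2.5 weeks among list members with a promoter of their own in the RefSeq table. Capitals mark the letters CCAAT, the element called CHR (TTTGAA or TTCGAA) and the E2F element (TTTCGCGC or TTTGGCGC), searched on both strands, so that CCAAT on the other strand reads ATTGG. The strands were minus, plus and minus, and the positions were chr15:99651607-99651906 for Racgap1, chr11:117848987-117849286 for Birc5 and chr4:118437294-118437593 for Cdc20 (GRCm38.p6).
Racgap1: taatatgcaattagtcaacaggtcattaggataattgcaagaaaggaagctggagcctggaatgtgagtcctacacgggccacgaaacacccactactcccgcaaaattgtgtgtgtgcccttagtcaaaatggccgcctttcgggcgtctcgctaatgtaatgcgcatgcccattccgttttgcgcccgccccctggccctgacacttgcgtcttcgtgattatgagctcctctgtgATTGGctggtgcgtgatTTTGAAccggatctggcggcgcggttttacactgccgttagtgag
Birc5: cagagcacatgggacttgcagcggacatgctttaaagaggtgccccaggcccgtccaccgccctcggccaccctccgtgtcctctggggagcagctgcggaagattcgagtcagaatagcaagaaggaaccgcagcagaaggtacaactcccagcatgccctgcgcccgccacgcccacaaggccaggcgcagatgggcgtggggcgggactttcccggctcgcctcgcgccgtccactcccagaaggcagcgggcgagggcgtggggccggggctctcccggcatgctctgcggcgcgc
Cdc20: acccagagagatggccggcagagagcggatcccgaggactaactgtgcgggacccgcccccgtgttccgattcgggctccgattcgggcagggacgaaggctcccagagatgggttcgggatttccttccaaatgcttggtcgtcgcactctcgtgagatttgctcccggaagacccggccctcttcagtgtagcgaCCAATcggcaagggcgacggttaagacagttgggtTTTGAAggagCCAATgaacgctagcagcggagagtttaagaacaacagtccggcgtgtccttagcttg
Racgap1 and Cdc20 hold CCAAT and CHR, and the letters marked by capitals are not in the Birc5 window. CHR occurs in 84% of the 25 mitosis promoters in the table, against 19.4% of all 27025, and CCAAT in 84% against 37.9%. In the 23 DNA replication promoters CHR occurs in 21.7%, CCAAT in 56.5% and the E2F letters in 30.4%, against 0.833% for E2F over all promoters. The GC box (GGGCGG) was searched as well and is not marked. It occurs in 88% of the mitosis and 69.6% of the DNA replication promoters, against 35.9% of all. These are matches of letters, and binding was not measured.

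Racgap1, a GTPase-activating protein of cytokinesis, was at 0.838, 4.72 and 2.15 CPM, at 35.7, 23.6 and 29.6 CPM and at 11.2 and 5.42 CPM. It fell from 7 to 12.5 weeks (log2 −1.69, adjusted p = 0.023) and was still called above 2.5 weeks (log2 1.87 ± 0.49, adjusted p = 0.011), a call lost without replicate 1 at 12.5 weeks (adjusted p = 0.27). Birc5, or survivin, was at 2.09, 5.31 and 2.58 CPM, at 24.7, 18.6 and 18.1 CPM and at 3.67 and 1.43 CPM. Here the oldest and youngest libraries overlapped (log2 −0.16 ± 0.50) and both lay below every 7-week library. Cdc20, an activator of the anaphase-promoting complex, was at 5.03, 6.49 and 6.23 CPM, at 28.2, 21.6 and 14.7 CPM and at 3.86 and 3.42 CPM. It also peaked at 7 weeks, but its oldest libraries lay below every youngest one, a difference that did not pass the test. Birc5 and Cdc20 were named after the order of their p-values was known.

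Top2a, the topoisomerase of dividing cells, was at 2.93, 20.7 and 2.36 CPM, at 52.2, 42.9 and 33.7 CPM and at 10.2 and 16.3 CPM. With all libraries its change at 12.5 against 2.5 weeks was 0.70 ± 0.62 on the log2 scale (adjusted p = 0.43); without replicate 2 at 2.5 weeks it was 2.44 (adjusted p = 4.3e-05). The proliferation marker Mki67 gave 1.42 ± 0.53 (adjusted p = 0.060) and, without that library, 2.63 (adjusted p = 0.00026). Mcm5, a subunit of the replicative helicase, was at 4.19, 10.4 and 10.7 CPM, at 54.5, 49.2 and 43.2 CPM and at 12 and 16.3 CPM. It fell after 7 weeks (log2 −1.72, adjusted p = 0.0037), and its remaining excess over 2.5 weeks was 0.87 ± 0.32 (adjusted p = 0.055; without replicate 2 at 2.5 weeks 1.07, adjusted p = 0.016). Uhrf1, which guides maintenance methylation of DNA, was at 38.9, 26.1 and 26.4 CPM at 7 weeks and at 3.48 and 8.27 CPM at 12.5 weeks, against 2.72 to 4.72 CPM at 2.5 weeks.

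**Figure D4:**
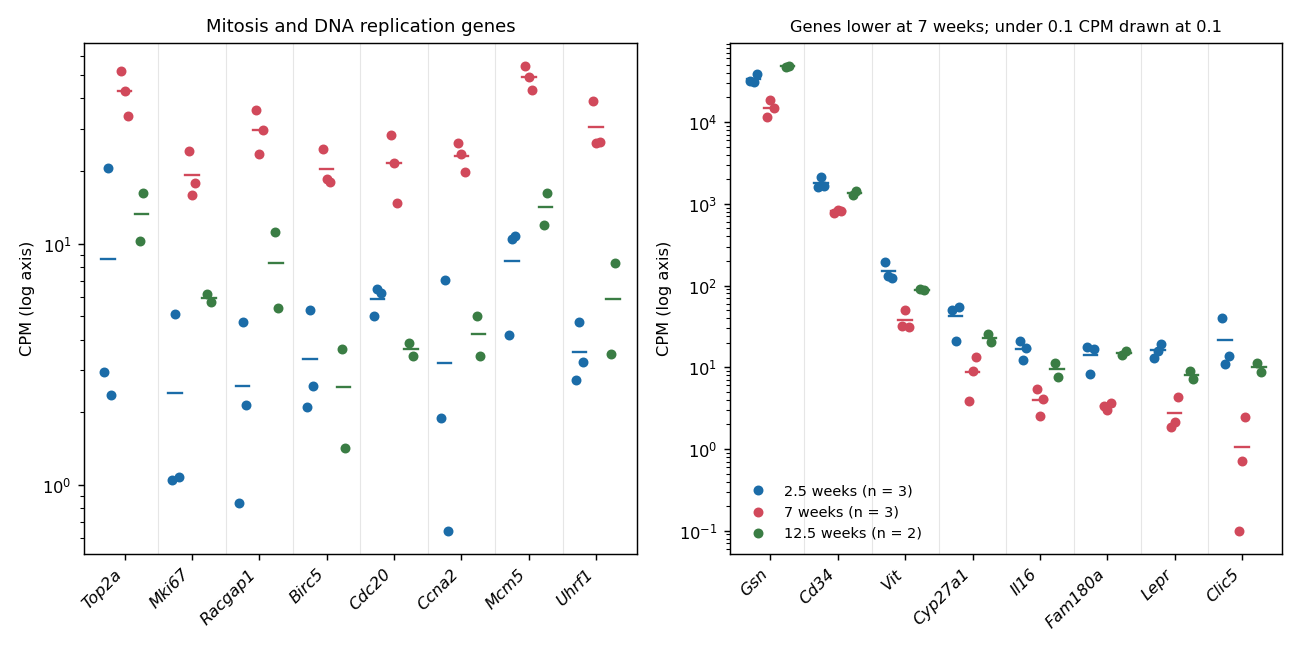
CPM on a log axis of 8 cell division genes (left) and 8 genes with a trough at 7 weeks (right) in mdx MmSCs by age; points are libraries, bars are group means, and values under 0.1 CPM are drawn at 0.1. On the left 1 library at 2.5 weeks, replicate 2, lies above the other two for Top2a, Mki67 and Racgap1; on the right every 7-week library lies below the libraries of both other ages.

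Other genes that peaked at 7 weeks and returned include Uox, urate oxidase, at 20.3, 21.6 and 10.4 CPM at 7 weeks against 0.209 to 1.5 CPM before and 0.966 and 2.57 CPM after. S1pr1, a receptor for sphingosine 1-phosphate, was at 31, 28.8 and 25.1 CPM at 7 weeks and at 1.72 to 5.51 and 2 to 6.76 CPM at the other ages. Nuclear genes of oxidative phosphorylation were higher at 7 weeks in 59 of 76 with 0 lower, and at 12.5 weeks in 7 with 0 lower. That last count was 29 without replicate 2 at 2.5 weeks, 2 without replicate 1 there and 0 without replicate 3. Without replicate 1 and 2 at 12.5 weeks it was 0 and 1. Only 3 members fell from 7 to 12.5 weeks in the test with all libraries (24 without replicate 2 at 2.5 weeks).

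Of the genes with a trough at 7 weeks, Cd34, a surface sialomucin of progenitors, was at 1597, 2122 and 1673 CPM, at 778, 829 and 824 CPM and at 1276 and 1419.8 CPM. It rose after 7 weeks (log2 0.83, adjusted p = 0.0042), and the oldest libraries lay below the youngest by an amount that did not pass the test (log2 −0.26 ± 0.15, adjusted p = 0.19). Lepr, the leptin receptor, was at 13, 15.9 and 19.3 CPM, at 1.85, 2.15 and 4.29 CPM and at 8.89 and 7.13 CPM. Clic5, an intracellular chloride channel protein, had a deep trough, with 0, 0.715 and 2.49 CPM at 7 weeks between 11 to 39.6 and 8.84 to 11.4 CPM. Vit, a matrix protein, was at 196, 129 and 124 CPM, at 32, 49.5 and 31.4 CPM and at 90.4 and 87.2 CPM. Without replicate 2 at 2.5 weeks Vit was called lower at 12.5 than at 2.5 weeks (log2 −0.68, adjusted p = 0.015), and so was Cyp27a1, a sterol hydroxylase (adjusted p = 0.015).

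Some genes went past their starting level. In 15 genes the change at 12.5 against 2.5 weeks was called opposite to the change at 7 against 2.5 weeks. Gsn, the actin-severing protein gelsolin and one of the most abundant MmSC transcripts (chr2:35256380-35307892), was at 31544, 30683 and 38568 CPM, at 11662, 18397 and 15014 CPM and at 47729 and 48604 CPM. It was 3.42-fold higher at 12.5 than at 7 weeks (adjusted p = 0.00018) and 1.60-fold above 2.5 weeks (log2 0.68 ± 0.16, adjusted p = 0.0077), a call lost without replicate 1 at 12.5 weeks (adjusted p = 0.056). Gdf10, a BMP-family ligand, was at 118, 148 and 138 CPM, at 79.9, 89.4 and 116 CPM and at 271 and 205 CPM; its call at 12.5 against 2.5 weeks was lost without replicate 1 at 12.5 weeks (adjusted p = 0.055). In uninjured C57BL/6J MmSCs Gsn was at 91214 ± 4912 CPM (SD, n = 3), above all 8 mdx libraries.

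Late genes, which by rule did not pass the test at 7 against 2.5 weeks, were few. A gene that did not pass may still have moved by 7 weeks. Musk, the receptor kinase better known from the neuromuscular junction, was at 61.6, 53.3 and 66.8 CPM, at 63.1, 80.7 and 69.6 CPM and at 156 and 177 CPM. It was 3.06-fold higher at 12.5 than at 2.5 weeks (log2 1.61 ± 0.14, adjusted p = 2.2e-06). Agt, angiotensinogen, was at 17.8, 4.92 and 17.2 CPM, at 6.88, 12.9 and 14.2 CPM and at 67 and 40.2 CPM. The clock repressor Nr1d1 rose from 64.9, 118 and 94.8 CPM and 118, 120.0 and 106 CPM to 187 and 266 CPM; hours of collection are not in the labels. Pltp, a phospholipid transfer protein, rose 2.61-fold and Cyb561, an electron transporter, 2.72-fold. Among late lower genes outside the imprinted list, the cell cycle kinase Cdk2 fell from 32.7, 27 and 38 CPM and 27.3, 24.3 and 21.2 CPM to 13.5 and 8.55 CPM. The iron exporter Slc40a1 fell by 1.65 on the log2 scale (SE 0.44), a call lost without replicate 1 at 12.5 weeks (adjusted p = 0.15).

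The classes were then set against a change measured in other libraries, that of C57BL/6J MmSCs 1 day after cardiotoxin, a snake toxin that kills muscle fibres. In that comparison 2981 genes were higher and 3871 lower of 16374, or 41.8% (18.2% and 23.6%). Of the 12459 genes tested in both fits, 22.8% were higher and 26.6% lower after injury (median log2 −0.15). Of 1434 lasting higher genes 42.5% were higher and 16.8% lower, and of 1265 lasting lower genes 6.96% were higher and 51.5% lower. The genes that peaked at 7 weeks and returned were higher after injury in 60.4% and lower in 8.18% of 159, and those with a trough were lower in 75% and higher in 5.98% of 184. Of the 75 late higher genes 18.7% were higher and 46.7% lower after injury (median log2 −1.02). With classes made without replicate 2 at 2.5 weeks these shares were 45.6% and 15.2% for lasting higher, 6.89% and 49.7% for lasting lower, 61.1% and 10% for a peak, 5.97% and 67.5% for a trough, and 22.6% and 39.4% for late higher genes.

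**Figure D5:**
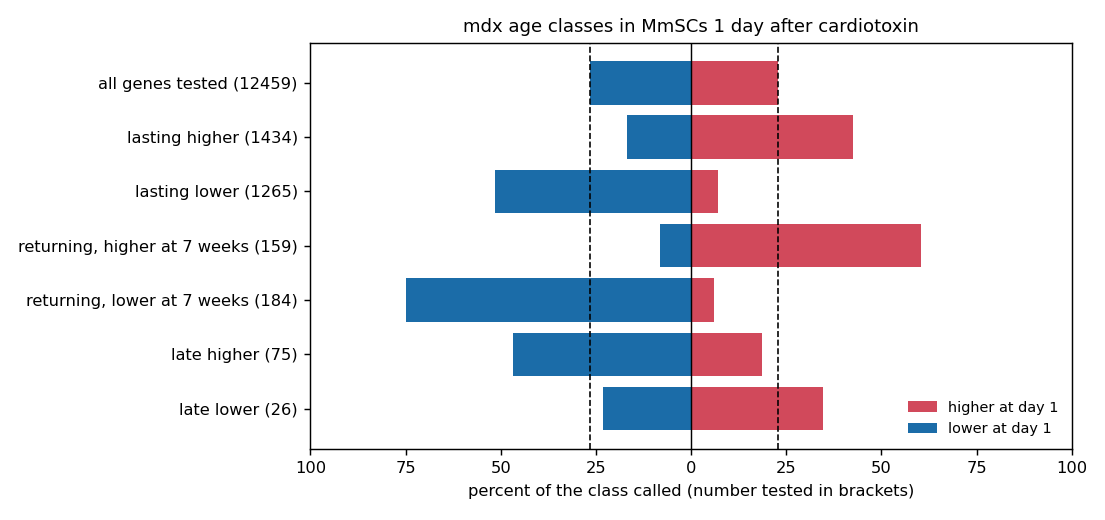
Percent of the genes of each mdx age class that were called higher or lower in C57BL/6J MmSCs 1 day after cardiotoxin against uninjured, with the number tested in brackets. Genes with a trough at 7 weeks were lower after injury in 75% and late higher genes in 46.7%, against 26.6% of all genes tested in both.

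Single lists are set side by side for injury and for mdx age. Mitosis genes were higher after injury in 26 of 30 and imprinted genes lower in 16 of 24. Tnc rose in both settings (after injury from 8.79 ± 5.83 to 358.9 ± 91.7 CPM, SD, n = 3). The mean of Spp1 was higher in both settings as well (after injury from 0.188 ± 0.325 to 145 ± 142 CPM). The spread of Spp1 among the injured libraries was nearly as large as its mean. Complement genes, higher in 14 of 18 at 12.5 weeks in mdx, were lower after injury in 12 of 18 with 0 higher (median log2 −1.90). C7 was at 163 ± 60.5 CPM before and 21.3 ± 14.3 CPM after injury (log2 −3.23 ± 0.46, adjusted p = 5.2e-05). Tendon and cartilage genes were likewise lower after injury in 10 of 18 and higher in 3, and Cilp was at 848 ± 138 CPM before and 166 ± 35.0 CPM after. A fall after injury was not particular to complement and tendon genes. Basement membrane genes were lower in 16 of 22 with 0 higher, and the adventitial and parenchymal fibroblast genes in 20 of 26 with 1 higher. Musk and Agt, late higher in mdx, were both lower after injury (Musk from 120.4 ± 19.2 to 39.0 ± 3.68 CPM). Mmp13, which reached 26.8 CPM or more in every mdx library from 7 weeks on, was at 0 CPM in all 6 C57BL/6J libraries. The injury libraries come from other mice and another strain label, and the difference between both effects was not tested.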

How the data were processed

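The deposited file is a table of raw counts per gene for 55011 genes, which the authors made with STAR 2.7.3a and featureCounts on GRCm38/mm10, per the submitters' processing notes. How strand and multi-mapping reads were handled is not stated in these notes, so overlapping and near-identical genes are uncertain. All columns were matched to samples by title (0 unmatched).

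Counts of the 8 mdx libraries were fitted together with edgeR 4.0.16 (R 4.3.3; filterByExpr with a minimum count of 10, TMM factors, 1 mean per age, quasi-likelihood F test with 5 residual degrees of freedom). The p-values of each comparison were adjusted by Benjamini-Hochberg over all 13160 genes tested and called under 0.05. The biological coefficient of variation was 16.5%. CPM are counts per 1000000 counts of the library, and fold changes come from the fit. Where the libraries of an age held 0 counts, the bound uses a floor of 3 counts per library; where they held 1 to 3 counts in all, a ratio of scaled counts with an exact counting interval is given. Both cover counting error only. The injury comparison was fitted with 24 uninjured and day 1 libraries of 4 sorted cell types. Scripts were tested on simulated counts.

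Genes named are the 12 highest and 12 lowest called genes with no overlap and an average log2 CPM of at least 3, 6 per class and direction, up to 8 members per list by p plus members called against the list's median, and a fixed set. The comparison, the 55 gene lists and the classes were chosen with earlier results of these data known. Alternatives were other scaling factors, filters, DESeq2 1.42.0, a replicate block, the 5 libraries alone and leaving out each library. Promoters are from RefSeq on GRCm38.p6, and gene positions are those of the annotation on GRCm38.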

Additional observations from a re-analysis of the deposited data

How the results depend on the processing

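Only 2 libraries at 12.5 weeks limit the comparison, and leaving out 1 library changed the counts over all genes given below. Over the libraries left out, genes higher at 12.5 against 2.5 weeks ranged from 931 to 2493 and genes lower from 753 to 2295. At 7 against 2.5 weeks they ranged from 2271 to 3323 and from 2284 to 3226, and at 12.5 against 7 weeks from 81 to 829 and from 52 to 789. Lasting higher genes ranged from 821 to 2097 and lasting lower genes from 684 to 1985. Returning genes with a peak at 7 weeks ranged from 28 to 329 and those with a trough from 44 to 270. Late higher genes ranged from 11 to 140 and late lower genes from 5 to 58, and in the injury comparison higher genes ranged from 2522 to 3197 and lower genes from 2628 to 3423. In the mdx comparisons that involve 12.5 weeks the lowest counts came without a 12.5-week library and the highest without replicate 2 at 2.5 weeks. With no filter on low counts 582 genes were lower at 12.5 against 7 weeks and 286 returned from a peak; the cause was not tested. At 12.5 against 2.5 weeks DESeq2 called 1677 higher and 1541 lower, and the 5 libraries alone 1328 and 1231.

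The replicate block gave 1622 higher and 1318 lower. What libraries with the same number have in common is not in the labels. The correlation of their deviations from the group means ran from −0.0212 to 0.0528. Of the 6 libraries at 2.5 and 7 weeks 3 correlated best with their own number. With so few libraries per age these values cannot show whether a number stands for a shared source. With the block 8 complement genes rose from 7 to 12.5 weeks, and 4 oxidative phosphorylation genes were higher at 12.5 than at 2.5 weeks. With no filter 23 mitosis genes fell and 8 complement genes rose from 7 to 12.5 weeks, and with the 5 libraries alone 10 collagen processing and 2 oxidative phosphorylation genes were higher at 12.5 than at 2.5 weeks. Single genes were checked in the alternatives at 12.5 against 2.5 weeks only, and not in the step from 7 to 12.5 weeks. Of 442 named genes tested, 370 were called at 12.5 against 2.5 weeks, 244 of these kept the call under every alternative that tested them, 126 lost it in at least 1, and 0 reversed. The call was lost by 102 without replicate 1 and by 85 without replicate 2 at 12.5 weeks, by 24 with the replicate block and by 10 with DESeq2.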
